A study of Mus musculus with 12 samples.

Results

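The genes described here are 48 genes of the sarcomere and of the contractile apparatus of skeletal muscle, chosen by their gene symbol out of the 16503 genes listed for myoblasts and fresh muscle stem cells (MuSCs) and the 16169 genes listed for Nedd4L-cKO and WT MuSCs. All 48 were listed in both tables. They were grouped by isoform class into 5 developmental genes (Myh3, Myh8, Actc1, Myl4 and Tnnt2), 13 adult fast genes and 10 slow or cardiac genes. The other 20 genes were not assigned to these classes and are called shared here. By place in the cell, the 48 genes held 2 actins, 6 myosin heavy chains, 6 myosin light chains, 7 troponins and 3 tropomyosins. A further 2 were caps or rulers of the thin filament, 9 were Z-disc and intermediate filament genes and 3 were titin and M-band genes. The others were 3 myosin-binding proteins and 7 genes for calcium storage, energy supply and the fibre membrane.

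The sarcomere is the contractile unit of striated muscle, in which myosin thick filaments pull on actin thin filaments that are anchored at the Z-disc. Most of its proteins exist as several isoforms from separate genes: developmental isoforms appear when myoblasts fuse and fibres form in the embryo and during regeneration, and fast or slow isoforms replace them as fibres mature. MuSCs are the quiescent, Pax7-expressing progenitors that lie beside the fibre, and they carry no sarcomeres themselves.

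Full-length cDNA made and amplified by SMART-seq was sequenced from 1000 cells in each of 12 libraries of mouse hindlimb muscle, with 3 libraries in each of 4 groups. In the first comparison, MuSCs were sorted from WT mice by FACS. They were ITGA7 positive and negative for the endothelial and blood cell markers CD31, CD45 and CD11b and for SCA1. Sorted WT MuSCs were also grown for 3 days in growth medium with serum and bFGF to give primary myoblasts. The labels give fresh MuSC and myoblast libraries the same numbers (replicates 04, 05 and 06). Same-numbered libraries are taken here to come from the same mouse, which the labels do not state. In the second, MuSCs were sorted in the same way from 3 WT and 3 Nedd4L-cKO mice of 5 to 6 weeks (replicates 01, 02 and 03), which are different animals. Nedd4L-cKO mice are Nedd4L fl/fl Pax7 cre/+ on a C57BL/6 background, in which Cre removes an exon of the catalytic domain from cells that express Pax7, and the age of the mice of the first comparison and the Cre status of the WT mice were not given in the sources used here. This Cre is not inducible, so that cells of the Pax7 lineage carry the deletion from development on. No treatment was given to the animals.

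Values are normalized counts scaled to RPM by the mean library total of their table. The library totals ran from 33189802 to 37595659 normalized counts in the first table and from 40323468 to 50687122 in the second. The depth in reads is unknown, and 1 RPM was 35.2 normalized counts in the first table and 43.6 in the second. The MuSC label was compared with MuSC markers, and no list of myoblast markers was used. Sdc4 (mean 3306 RPM) and Chodl (1584 RPM) were the highest of these markers in fresh MuSCs. Summed over 8 MuSC markers, fresh MuSCs had 5430 to 8033 RPM, the MuSCs of the genotype comparison 5012 to 9477 RPM and myoblasts 649 to 698 RPM, and 7 of the 8 markers were called lower in myoblasts. In bulk libraries such as these, fewer cells of a type and less RNA per cell cannot be told apart.

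The promoter windows of 5 members that the results turn on follow: Myh3, the most abundant heavy chain gene of myoblasts, Actc1 and Actn3, which with Myl1 passed the threshold in both comparisons, Mybph, among the largest increases in culture, and Myoz1, which did not pass in either. Each is the 250 bases before the transcription start of the Ensembl canonical transcript, in GRCm39 and read 5′ to 3′ on the strand of the gene. Capitals mark E-boxes (CANNTG), which are bound by MyoD and myogenin, and in Myoz1 also a MEF2 motif.
Myh3, chr11:66968876-66969125, plus strand: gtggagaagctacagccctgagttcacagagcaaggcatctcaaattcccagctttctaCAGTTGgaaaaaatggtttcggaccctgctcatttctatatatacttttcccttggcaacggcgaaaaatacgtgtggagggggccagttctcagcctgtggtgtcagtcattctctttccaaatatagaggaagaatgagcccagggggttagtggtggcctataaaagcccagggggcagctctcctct
Actc1, chr2:113884044-113884293, minus strand: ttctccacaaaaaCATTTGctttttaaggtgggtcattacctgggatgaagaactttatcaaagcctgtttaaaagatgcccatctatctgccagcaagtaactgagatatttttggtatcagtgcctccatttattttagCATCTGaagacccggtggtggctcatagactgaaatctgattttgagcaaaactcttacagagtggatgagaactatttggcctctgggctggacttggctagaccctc
Actn3, chr19:4928530-4928779, minus strand: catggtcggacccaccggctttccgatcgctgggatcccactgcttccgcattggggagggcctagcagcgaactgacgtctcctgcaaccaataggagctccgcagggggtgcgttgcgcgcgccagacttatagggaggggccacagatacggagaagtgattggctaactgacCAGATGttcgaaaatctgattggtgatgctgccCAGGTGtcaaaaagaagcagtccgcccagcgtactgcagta
Mybph, chr1:134120921-134121170, plus strand: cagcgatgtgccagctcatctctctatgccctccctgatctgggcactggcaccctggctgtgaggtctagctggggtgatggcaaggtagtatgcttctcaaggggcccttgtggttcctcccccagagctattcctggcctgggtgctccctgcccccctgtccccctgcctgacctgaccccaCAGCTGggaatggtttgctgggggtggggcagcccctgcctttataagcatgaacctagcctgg
Myoz1, chr14:20706609-20706858, minus strand: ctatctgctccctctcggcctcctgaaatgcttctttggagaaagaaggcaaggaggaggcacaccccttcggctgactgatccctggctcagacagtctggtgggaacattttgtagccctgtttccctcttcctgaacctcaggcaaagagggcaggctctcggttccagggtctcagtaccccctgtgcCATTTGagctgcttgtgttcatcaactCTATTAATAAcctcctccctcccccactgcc
Searched in the same window on both strands, an E-box was present in 39 of the 48 members (81.2%) and in 64.8% of 21770 promoters. The form CAGCTG, which is itself an E-box and is capitalised in Mybph, was present in 12 members (25%) and in 11.9% of promoters. A MEF2 motif was found in 5 members (10.4%, against 2.79%) and a CArG box, the motif of serum response factor, in 3 (6.25%, against 1.4%). These matches describe the letters of the window and not binding.

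In myoblasts grown for 3 days, most of the contractile apparatus was expressed at many times its level in fresh MuSCs. Of the 48 members, 39 had a limma adjusted p of 0.05 or less and were called higher in myoblasts (Benjamini-Hochberg adjustment over 15345 tested genes), 0 were called lower, also by an unadjusted p under 0.05, and 9 were not called. Over all tested genes, 22.2% were called higher and 20.6% lower. The median log2 fold change was 5.29 over the members and 0.04 over all tested genes. All 5 developmental genes were called (median 6.20), as were 8 of 13 adult fast genes (median 3.94), 7 of 10 slow or cardiac genes (median 3.93) and 19 of 20 shared genes (median 5.58). The members made up 0.176% to 0.219% of all normalized counts in the 3 libraries of fresh MuSCs, and 2.70%, 4.89% and 7.60% in myoblast replicates 04, 05 and 06.

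The 3 myoblast libraries did not carry this expression equally. Replicate 06 was the highest of them for 46 of 48 members and replicate 04 the lowest for 45, whereas over all tested genes replicate 06 was highest for 27.7% and replicate 04 lowest for 41.8%. The spread within the myoblast group is therefore shared by the members, and the part of this order in the results was not tested. The groups did not overlap for 39 members, all higher in myoblasts (over all tested genes, 28.4% did not overlap and were higher, and 26.8% did not overlap and were lower). The count called was 36 to 39 when each library was left out in turn.

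**Figure D1:**
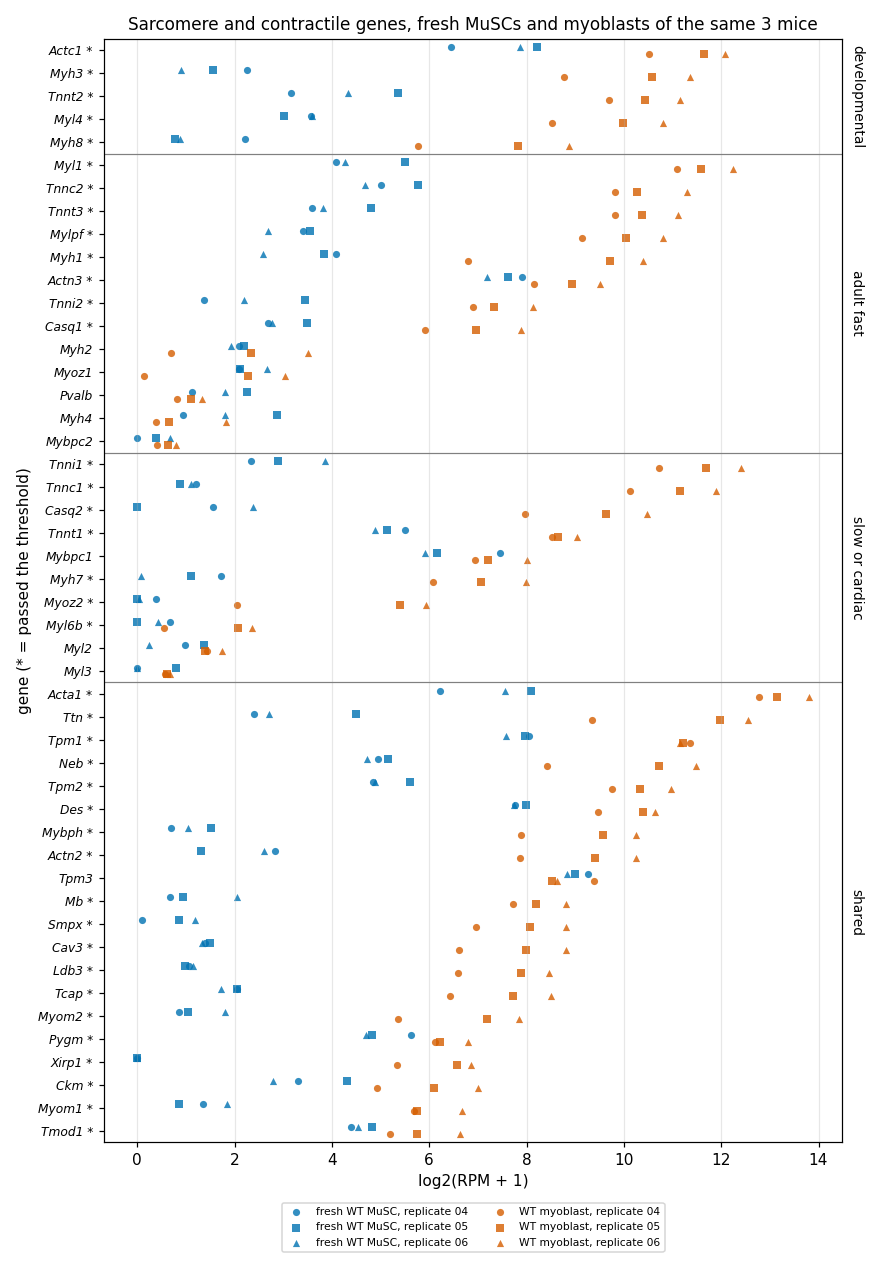
Expression of the 48 members in fresh WT MuSCs (blue) and WT myoblasts (orange), as log2(RPM + 1) on the x axis, with 1 row per gene, grouped by isoform class and ordered by the mean in myoblasts; marker shapes give the replicate number and asterisks mark called genes (adjusted p of 0.05 or less). The 3 orange points lie to the right of the blue points for 39 genes, and Myh2, Myh4, Mybpc2, Pvalb, Myoz1, Mybpc1, Myl3, Tpm3 and Myl6b overlap.

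Both sarcomeric actins rose. Actc1, the cardiac α-actin that is the main sarcomeric actin of embryonic muscle, had 85.7, 297 and 231 RPM in fresh MuSCs and 1470, 3192 and 4340 RPM in myoblasts (log2 fold change 3.91, SE 0.50, limma adjusted p = 3.81e-04). Acta1, the α-actin of adult skeletal muscle, had 73.98, 270 and 188 RPM in fresh MuSCs and 7018, 9067 and 14266 RPM in myoblasts (log2 fold change 5.95, SE 0.45, limma adjusted p = 2.04e-05). The lowest myoblast library stood above the highest MuSC library for both genes. Per kb of exon, Acta1 had the highest mean level of all members in myoblasts, at 2723 RPM per kb, and Actc1 was the seventh, at 518 RPM per kb.

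The myosin heavy chains, the motors of the thick filament, split by isoform. The 2 developmental chains, the embryonic Myh3 and the neonatal Myh8, were called higher, as were the adult fast Myh1 and the slow Myh7, while the adult fast Myh2 and Myh4 were not. Myh3 had 3.76, 1.94 and 0.876 RPM in fresh MuSCs and 435, 1521 and 2644 RPM in myoblasts (log2 fold change 8.66, SE 0.61, limma adjusted p = 1.47e-05). Myh8 had 3.67, 0.708 and 0.832 RPM in fresh MuSCs and 53.8, 225 and 467 RPM in myoblasts, which gave log2 fold change 6.20, SE 0.72, limma adjusted p = 2.27e-04. Every MuSC library held under 4 RPM of either developmental chain.

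Of the adult chains, Myh1, the IIx chain, had 15.96, 13.3 and 5.03 RPM in fresh MuSCs and 110, 842 and 1341 RPM in myoblasts (log2 fold change 5.47, SE 0.82, limma adjusted p = 8.84e-04). Myh7, the slow chain that the heart shares, had 2.29, 1.14 and 0.0530 RPM in fresh MuSCs and 66.4, 134 and 251 RPM in myoblasts (log2 fold change 6.08, SE 0.55, limma adjusted p = 5.41e-05). The IIa and IIb chains were not called. Myh2 had 3.28, 3.56 and 2.79 RPM in fresh MuSCs and 0.626, 4.03 and 10.3 RPM in myoblasts (log2 fold change 0.11, 95% confidence interval -1.29 to 1.504, limma adjusted p = 0.903), and Myh4 had 0.914, 6.34 and 2.49 RPM in fresh MuSCs and 0.302, 0.576 and 2.52 RPM in myoblasts (log2 fold change -0.92, limma adjusted p = 0.196). For Myh2 the sign depended on the pseudocount, with -0.066 at a pseudocount of 0.1 RPM. Myh3, Myh2, Myh1, Myh4 and Myh8 lie in this order on the plus strand of chromosome 11, from 66969126 to 67199462 in GRCm39, so that the chain of the largest increase and the chains that were not called are neighbours in a single cluster. These genes are close copies of each other, and 10.2% of the 31-base words in the transcripts of Myh3, 24.6% of those of Myh8, 28.6% of those of Myh4, 31.9% of those of Myh2 and 33% of those of Myh1 occur in another gene, which makes the split of reads among Myh1, Myh2, Myh4 and Myh8 less certain than that of Myh3. Myh7 shares 25.1% of its words with the cardiac Myh6, which itself was at 0.00418, 0.0741 and 0 RPM in fresh MuSCs and at 3.75, 4.61 and 13.3 RPM in myoblasts.

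As shares of the 6 heavy chains per kb of exon, Myh3 made up 73.7%, 64.6% and 65.1% of the chains in myoblast replicates 04, 05 and 06. Myh1 followed with 13.8%, 26.3% and 24.3%. Myh8 was 4.92% to 6.20%, Myh7 3.73% to 7.40%, Myh2 at most 0.194% and Myh4 at most 0.0616%. In fresh MuSCs the order was another one, with Myh1 at 52.5%, 44.8% and 38.4%, Myh4 at 4.04%, 28.8% and 25.5%, Myh2 at 11.1% to 22.0% and Myh3 at 8.88% to 16.8%. Developmental chains (Myh3 and Myh8) summed to 16.7% ± 7.92 (SD, n = 3) in fresh MuSCs and 73.3% ± 4.74 (SD, n = 3) in myoblasts, with no overlap. The shares of MuSCs rest on little RNA, since the 6 chains summed to 12.1 to 29.9 RPM there and to 666, 2726 and 4715 RPM in myoblasts. Exon length counts all annotated exons, and by the length of the longest coding transcript instead Myh3 was 59.7% to 67.7% and Myh8 8.44% to 10.6% in myoblasts.

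**Figure D2:**
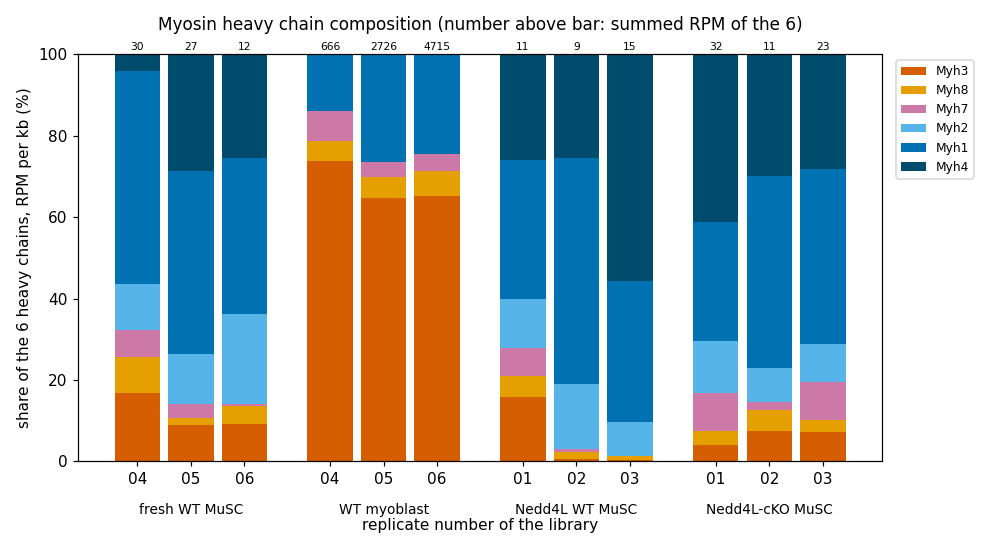
Share of each of the 6 myosin heavy chain genes in their sum per kb of exon (y axis, %), for the 12 libraries (x axis, by group and replicate number); the number above each bar is the summed RPM of the 6 genes. Myh3 (dark orange) takes 64.6% to 73.7% of the bar in myoblasts and at most 16.8% in any MuSC library, and the adult fast chains (blues) fill most of the MuSC bars.

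Among the myosin light chains, which stabilise and tune the neck of the heavy chain, Myl4, the embryonic and atrial essential chain, had 10.9, 7.08 and 11.1 RPM in fresh MuSCs and 365, 1009 and 1795 RPM in myoblasts (log2 fold change 6.38, SE 0.50, limma adjusted p = 2.54e-05). The fast chains rose too, with 15.8, 44.4 and 18.3 RPM in fresh MuSCs and 2191, 3051 and 4863 RPM in myoblasts for the essential chain Myl1 (log2 fold change 7.02, SE 0.40, limma adjusted p = 5.70e-06) and 9.66, 10.8 and 5.41 RPM in fresh MuSCs and 564, 1055 and 1789 RPM in myoblasts for the regulatory chain Mylpf (log2 fold change 6.78, SE 0.41, limma adjusted p = 6.88e-06). The slow and ventricular chains Myl2 and Myl3 were under 3 RPM in every library of fresh MuSCs and myoblasts. Myl2 had 0.979, 1.59 and 0.188 RPM in fresh MuSCs and 1.69, 1.62 and 2.33 RPM in myoblasts (limma adjusted p = 0.135), with no overlap, and Myl3 0, 0.739 and 0 RPM in fresh MuSCs and 0.480, 0.538 and 0.597 RPM in myoblasts (limma adjusted p = 0.263). Myl3 passed only without fresh MuSC replicate 05 (limma adjusted p = 0.0325). Myl6b, a slow and embryonic essential chain, had 0.604, 0 and 0.343 RPM in fresh MuSCs and 0.454, 3.17 and 4.12 RPM in myoblasts. Its call was marginal: the groups overlapped, the limma adjusted p was 0.0462, and with the replicate number as a block it was 0.0598.

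All 7 troponin genes, the calcium switch of the thin filament, were called higher, whatever their isoform. Tnnc1, the calcium-binding subunit of slow and cardiac muscle, showed the largest increase of all members, with 1.30, 0.840 and 1.15 RPM in fresh MuSCs and 1123, 2261 and 3815 RPM in myoblasts (log2 fold change 9.997, SE 0.39, limma adjusted p = 8.49e-07). Tnni1, the slow inhibitory subunit, had 4.03, 6.46 and 13.5 RPM in fresh MuSCs and 1681, 3321 and 5396 RPM in myoblasts (log2 fold change 8.57, SE 0.47, limma adjusted p = 4.53e-06). The slow subunits C and I were thus at most 13.5 RPM before culture and at least 1123 RPM after it.

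The fast inhibitory subunit Tnni2 had 1.60, 9.89 and 3.60 RPM in fresh MuSCs and 119, 161 and 282 RPM in myoblasts (log2 fold change 5.12, SE 0.52, limma adjusted p = 1.00e-04). Tnnc2, the fast calcium-binding subunit, had 31.3, 53.9 and 24.7 RPM in fresh MuSCs and 899, 1230 and 2515 RPM in myoblasts (log2 fold change 5.30, SE 0.40, limma adjusted p = 2.08e-05). Of its 31-base words, 51.3% lie also in the overlapping Ube2c, a ubiquitin-conjugating enzyme of mitosis, which had 22.8, 54.6 and 77.4 RPM in fresh MuSCs and 108, 112 and 73.1 RPM in myoblasts. Its part in the values of Tnnc2 was not tested.

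The tropomyosin-binding subunits were called in every isoform. Cardiac and embryonic Tnnt2 had 7.93, 39.9 and 19.04 RPM in fresh MuSCs and 828, 1388 and 2285 RPM in myoblasts (log2 fold change 6.15), fast Tnnt3 had 11.1, 27.1 and 13.1 RPM in fresh MuSCs and 906, 1317 and 2199 RPM in myoblasts (log2 fold change 6.36) and slow Tnnt1 had 44.6, 34.1 and 28.5 RPM in fresh MuSCs and 366, 398 and 522 RPM in myoblasts (log2 fold change 3.55), with limma adjusted p-values of 4.38e-05, 7.48e-06 and 9.65e-06. Slow Tnnt1 was already at 28.5 to 44.6 RPM in MuSCs and had the smallest fold change of the troponins.

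Of the tropomyosins, which lie along the thin filament, Tpm1 and Tpm2 were called higher (log2 fold changes 3.38 and 5.23, limma adjusted p = 4.04e-06 and 8.37e-06). Tpm1 was the called gene that went against the order of the myoblast libraries, with 2637, 2379 and 2269 RPM in replicates 04, 05 and 06. Tpm3, which makes cytoskeletal as well as slow muscle tropomyosin, had 615, 507 and 456 RPM in fresh MuSCs and 672, 369 and 392 RPM in myoblasts (log2 fold change -0.18, 95% confidence interval -0.75 to 0.39, limma adjusted p = 0.583) and was the shared gene that did not pass. It had the highest mean level per kb of all members in fresh MuSCs, at 64.8 RPM per kb. Of its 31-base words, 41.4% recur in Tpm3-rs7, which was under 10 RPM in each library of this table. Nebulin (Neb), the ruler of the thin filament, had 29.7, 34.6 and 25.4 RPM in fresh MuSCs and 343, 1697 and 2865 RPM in myoblasts (log2 fold change 5.28, SE 0.64, limma adjusted p = 2.84e-04), and Tmod1, which caps its pointed end, had 19.9, 27.4 and 22.1 RPM in fresh MuSCs and 35.4, 52.8 and 98.3 RPM in myoblasts (log2 fold change 1.28, limma adjusted p = 0.0190). Leaving out any of 4 libraries (fresh MuSC replicates 04 and 06, myoblast replicates 05 and 06) took the adjusted p of Tmod1 above 0.05, to at most 0.0586, and 27.6% of its words lie also in Tstd2, which had 29.5, 18.2 and 31.8 RPM in fresh MuSCs and 54.9, 61.1 and 46.9 RPM in myoblasts.

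The scaffold of the sarcomere rose with the filaments. Titin (Ttn), the spring that spans from Z-disc to M-band, had 4.28, 21.6 and 5.55 RPM in fresh MuSCs and 648, 4026 and 6037 RPM in myoblasts (log2 fold change 8.09, SE 0.81, limma adjusted p = 9.70e-05). The M-band proteins Myom1 and Myom2 had log2 fold changes of 4.69 and 5.56. Of the 9 Z-disc and intermediate filament genes, 8 were called, with log2 fold changes of 4.32 for the slow calsarcin Myoz2, 5.60 for Tcap, 6.59 for Ldb3 and 7.23 for Smpx. Desmin (Des), the muscle intermediate filament, was already at 227 ± 22.8 RPM (SD, n = 3) in MuSCs and reached 1217 ± 459 RPM (SD, n = 3) in myoblasts.

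The α-actinins cross-link actin at the Z-disc. Actn2 had 6.14, 1.49 and 5.11 RPM in fresh MuSCs and 233, 682 and 1218 RPM in myoblasts (log2 fold change 6.92, SE 0.59, limma adjusted p = 4.10e-05). Actn3, the form of fast fibres, was already expressed in MuSCs, with 240, 196 and 144 RPM in fresh MuSCs and 282, 488 and 725 RPM in myoblasts (log2 fold change 1.29, SE 0.34, limma adjusted p = 0.0143). The call of Actn3 was lost without fresh MuSC replicate 06 (limma adjusted p = 0.0581) or myoblast replicate 05 (0.0514). Its mean of 38.3 RPM per kb made Actn3 the fifth of all members in fresh MuSCs. Xirp1, an adaptor of actin, was listed at 0 in all 3 libraries of fresh MuSCs and had 39.3, 93.5 and 114 RPM in myoblasts, and it passed the filter on low values by the myoblast libraries alone.

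Myoz1, the fast calsarcin, had 3.24, 3.31 and 5.36 RPM in fresh MuSCs and 0.103, 3.86 and 7.25 RPM in myoblasts (log2 fold change -0.46, SE 0.66, limma adjusted p = 0.598), and its sign turned without myoblast replicate 04 (log2 fold change 0.38). Its partner Myoz2 had 0.314, 0 and 0.0302 RPM in fresh MuSCs and 3.16, 40.96 and 60.3 RPM in myoblasts. The slow member of the pair was therefore seen at 40.96 and 60.3 RPM in myoblast replicates 05 and 06, where the fast one was at 3.86 and 7.25 RPM.

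Of the myosin-binding proteins, which lie across the thick filament, only Mybph was called. It had 0.613, 1.85 and 1.07 RPM in fresh MuSCs and 234, 765 and 1215 RPM in myoblasts (log2 fold change 8.15, SE 0.54, limma adjusted p = 1.08e-05). Its transcripts share 58.9% of their 31-base words with Adora1, a gene for an adenosine receptor, which had 17.7, 7.54 and 4.90 RPM in fresh MuSCs and 14.0, 31.03 and 43.3 RPM in myoblasts. The slow Mybpc1 had 174, 70.5 and 59.4 RPM in fresh MuSCs and 121, 146 and 256 RPM in myoblasts (log2 fold change 0.87, SE 0.42, limma adjusted p = 0.123), and without fresh MuSC replicate 04 its limma adjusted p was 0.0157. The fast Mybpc2 stayed under 1 RPM in all 6 libraries.

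Of the 7 genes for calcium, energy and the membrane, 6 were called. Casq2, the cardiac and slow calsequestrin that stores calcium in the sarcoplasmic reticulum, had 1.93, 0 and 4.18 RPM in fresh MuSCs and 249, 796 and 1417 RPM in myoblasts (log2 fold change 8.05, SE 0.71, limma adjusted p = 4.64e-05). The fast form Casq1 had 5.42, 10.2 and 5.85 RPM in fresh MuSCs and 59.3, 124 and 237 RPM in myoblasts (log2 fold change 3.94, SE 0.47, limma adjusted p = 2.53e-04). Myoglobin (Mb), the oxygen store, had a log2 fold change of 7.02, caveolin 3 (Cav3), of the fibre membrane, 6.40, muscle creatine kinase (Ckm) 2.54 and muscle glycogen phosphorylase (Pygm) 1.33. Pvalb, the calcium buffer of fast fibres, had 1.17, 3.75 and 2.48 RPM in fresh MuSCs and 0.772, 1.16 and 1.51 RPM in myoblasts (log2 fold change -0.63, limma adjusted p = 0.166). The 5 adult fast genes that did not pass, Myh2, Myh4, Mybpc2, Pvalb and Myoz1, were all at most 10.3 RPM in every library of this table.

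The balance between isoforms was examined as the log2 ratio of 11 pairs within each library, (RPM + 1) over (RPM + 1), which depends little on how libraries are scaled. With 3 libraries against 3 the exact two-sided permutation test cannot give a p below 0.1, which adjusted over all 12 pairs tested was 0.133, so no ratio could pass the threshold. The groups did not overlap in 8 of the 11 pairs. Differences of developmental or slow against fast isoforms lay in both directions. Tnnc1/Tnnc2 was -3.81, -4.90 and -3.58 in fresh MuSCs and 0.32, 0.88 and 0.60 in myoblasts (exact permutation p = 0.1), a difference of 4.70. Tnni1/Tnni2 was 0.95, -0.55 and 1.66 in fresh MuSCs and 3.81, 4.36 and 4.25 in myoblasts, a difference of 3.46.

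The slow subunits of troponin C and I were thus the larger part in every myoblast library on this scale. Tnnt1/Tnnt3 stood the other way, at 1.92, 0.32 and 1.06 in fresh MuSCs and -1.30, -1.72 and -2.07 in myoblasts, a difference of -2.80. The groups also lay apart for Actn2/Actn3 (difference 5.64), Casq2/Casq1 (4.11), Myoz2/Myoz1 (4.78), Myl3/Myl1 (-6.67) and Myl2/Mylpf (-6.13). The last 2 differences come from the fast chains, since Myl2 and Myl3 were under 3 RPM in every library of fresh MuSCs and myoblasts. The ratios of 2 developmental genes to their fast partners overlapped, Tnnt2/Tnnt3 (difference -0.20, exact permutation p = 0.6) and Myl4/Myl1 (-0.65, exact permutation p = 0.4), as did Mybpc1/Mybpc2 (0.62, exact permutation p = 0.5).

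**Figure D3:**
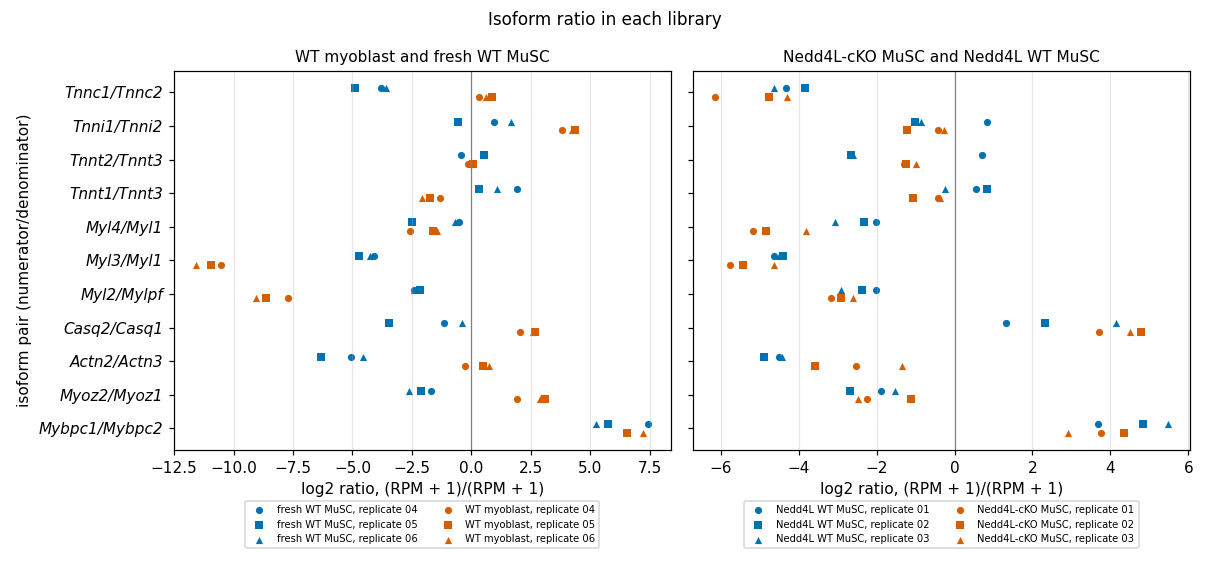
Log2 ratio of 11 isoform pairs in each library, as (RPM + 1) over (RPM + 1), for fresh MuSCs (blue) and myoblasts (orange) on the left and for WT (blue) and Nedd4L-cKO MuSCs (orange) on the right; marker shapes give the replicate and the 2 panels have different x axes. On the left, 8 pairs do not overlap, and Tnnt2/Tnnt3, Myl4/Myl1 and Mybpc1/Mybpc2 do; on the right, 4 pairs do not overlap, of which Actn2/Actn3 is higher in Nedd4L-cKO MuSCs.

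Other muscle genes were taken from lists of related function. Of 42 tested further sarcomere and myofibril genes, 30 were called higher and 1 lower (median log2 fold change 2.96). Lmod3, which nucleates thin filaments, Trim54 and Csrp3, both of the Z-disc and myofibril, had the 3 largest changes (7.34, 7.13 and 7.12). Of 27 genes of excitation-contraction coupling and fibre metabolism, 22 were called higher and 0 lower (median 3.15), led by the glycolytic enzymes Pgam2 (7.004) and Eno3 (6.76) and by Cacna1s (6.32), the voltage sensor of the T-tubule. Of 22 non-muscle and smooth muscle contractile genes, 7 were called higher and 2 lower, and their median was 0.00295.

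Regulators of myogenesis were called as well, 9 higher and 4 lower of 14. Myod1, which commits cells to the lineage, had 177, 188 and 167 RPM in fresh MuSCs and 1800, 1336 and 1000 RPM in myoblasts (log2 fold change 2.91, SE 0.22, limma adjusted p = 2.43e-05). Myog, which drives terminal differentiation, had 732, 720 and 524 RPM in fresh MuSCs and 3374, 3344 and 4521 RPM in myoblasts (log2 fold change 2.51, SE 0.20, limma adjusted p = 3.01e-05). Mymk, a protein of the fusing membrane, had 127, 162 and 156 RPM in fresh MuSCs and 607, 967 and 1522 RPM in myoblasts (log2 fold change 2.70, SE 0.31, limma adjusted p = 1.96e-04). Pax7 went the other way, with 249, 158 and 151 RPM in fresh MuSCs and 18.9, 21.2 and 17.8 RPM in myoblasts (log2 fold change -3.17, SE 0.24, limma adjusted p = 2.36e-05). The largest changes in this list were those of Mef2c (log2 fold change 7.18), Myf5 (-3.64) and Mymx (3.34). Myog and Mymk were highest in myoblast replicate 06, as the members were, while Myod1 was highest in replicate 04.

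In MuSCs that lacked the catalytic exon of Nedd4L, 3 of these genes passed the threshold, and 19 lay apart from WT with no overlap between the libraries. Nedd4l itself, whose transcript still forms, had 70.2, 96.5 and 66.7 RPM in WT MuSCs and 30.2, 36.3 and 22.5 RPM in Nedd4L-cKO MuSCs (log2 fold change -1.37, SE 0.28, limma adjusted p = 0.0467), with no overlap. This total does not measure the removed exon and so does not check the deletion itself. Of the 48 members, 47 were tested, Xirp1 being too low. A call here needed a limma adjusted p of 0.05 or less, a log2 fold change of 1 or more in either direction and a mean expression of 5 RPM or more. By these limits 2 members were called higher in Nedd4L-cKO MuSCs, Actc1 and Myl1, and 1 lower, Actn3, whereas 0.451% of all tested genes were called higher and 0.203% lower. The groups did not overlap for 17 members that were higher and 2 that were lower, Actn3 and Mybpc1. Over all tested genes, 9.75% did not overlap and were higher and 9.59% did not overlap and were lower. The median log2 fold change was 0.71 over the tested members and 0.0015 over all tested genes, and 40 of the 47 were above 0. By an unadjusted p under 0.05, 22 members were higher and 2 lower, against 7.51% and 7.13% of all tested genes.

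Actc1 had 237, 72.7 and 50.6 RPM in WT MuSCs and 676, 373 and 514 RPM in Nedd4L-cKO MuSCs (log2 fold change 2.39, SE 0.47, limma adjusted p = 0.0467). Its WT mean of 120 ± 102 RPM (SD, n = 3) compared with 521 ± 152 RPM (SD, n = 3) after the deletion, and per kb it went from the sixth member in WT (20.8 RPM per kb) to the second in Nedd4L-cKO MuSCs (89.9 RPM per kb). WT replicate 01 lay apart from the other WT libraries and still below every Nedd4L-cKO library. Myl1, the fast essential light chain, had 38.9, 25.2 and 40.9 RPM in WT MuSCs and 145, 97.6 and 86.2 RPM in Nedd4L-cKO MuSCs (log2 fold change 1.61, SE 0.29, limma adjusted p = 0.0325). Actn3 had 102, 115 and 72.3 RPM in WT MuSCs and 36.1, 37.1 and 27.7 RPM in Nedd4L-cKO MuSCs (log2 fold change -1.48, SE 0.27, limma adjusted p = 0.0327), so that the highest Nedd4L-cKO library was at 37.1 RPM and the lowest WT library at 72.3 RPM.

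These 3 calls were close to the threshold. Their direction was the same in each of the 13 alternative settings tried, but Actc1 had limma adjusted p-values from 0.00512 to 0.197 over them, Myl1 from 0.0102 to 0.139 and Actn3 from 0.0128 to 0.142. The number of members called was 0 without WT replicate 02, Nedd4L-cKO replicate 01 or Nedd4L-cKO replicate 02, 1 without Nedd4L-cKO replicate 03 and 5 without WT replicate 03. Those 5 did not include Actc1 (limma adjusted p = 0.0840). Without WT replicate 01, Actc1 (limma adjusted p = 0.00512) and Tnnt2 (0.0195) passed, and Myl1 (0.0610) and Actn3 (0.0935) did not. Acta1 had 280, 123 and 95.3 RPM in WT MuSCs and 325, 307 and 289 RPM in Nedd4L-cKO MuSCs (log2 fold change 1.04, limma adjusted p = 0.209), and the partner of Actn3, Actn2, had 3.50, 2.89 and 2.44 RPM in WT MuSCs and 5.48, 2.21 and 10.3 RPM in Nedd4L-cKO MuSCs (log2 fold change 0.66, limma adjusted p = 0.545).

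**Figure D4:**
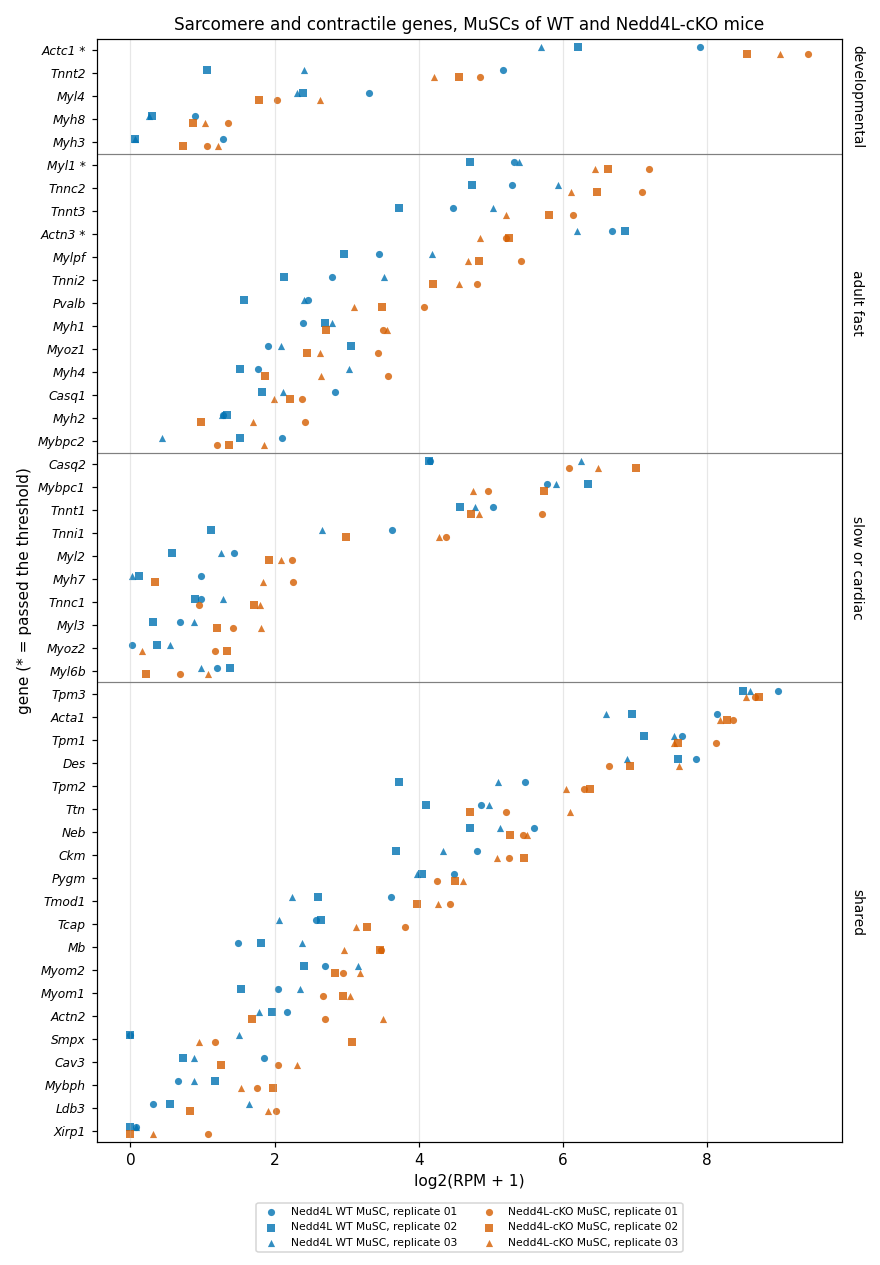
Expression of the 48 members in MuSCs of WT (blue) and Nedd4L-cKO mice (orange), as log2(RPM + 1) on the x axis, with 1 row per gene, grouped by isoform class and ordered by the mean in Nedd4L-cKO MuSCs; marker shapes give the replicate number and asterisks mark the 3 genes past the threshold. The orange points lie to the right of all blue points for 17 genes, among them Actc1 and Myl1, and to the left for Actn3 and Mybpc1. The other 29 genes overlap.

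Of the 17 members that were higher with no overlap, 6 were adult fast, 8 shared, 2 slow or cardiac and 1 developmental. Tnni2 had 5.93, 3.36 and 10.4 RPM in WT MuSCs and 27.02, 17.4 and 22.5 RPM in Nedd4L-cKO MuSCs (log2 fold change 1.71, limma adjusted p = 0.0651) and Mylpf 9.91, 6.75 and 17.2 RPM in WT MuSCs and 41.7, 27.6 and 24.7 RPM in Nedd4L-cKO MuSCs (log2 fold change 1.45, limma adjusted p = 0.0970). Both passed when genes needed 10 normalized counts in every library (limma adjusted p = 0.0296 and 0.0493) or without WT replicate 03 (0.0351 and 0.0488). Tpm2 had 43.4, 12.3 and 33.1 against 77.4, 82.2 and 64.7 RPM in WT and Nedd4L-cKO MuSCs (log2 fold change 1.47), Tnnt3 21.2, 12.2 and 31.6 against 69.6, 54.9 and 35.99 RPM (1.31) and Pvalb 4.53, 1.99 and 4.32 against 15.8, 10.2 and 7.58 RPM (1.40), with limma adjusted p-values of 0.119, 0.131 and 0.135.

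Tnnc2 had 38.2, 25.6 and 59.7 RPM in WT MuSCs and 135, 87.9 and 67.8 RPM in Nedd4L-cKO MuSCs (log2 fold change 1.24, limma adjusted p = 0.133). Here the gene that shares 51.3% of its 31-base words, Ube2c, differed too, with 14.4, 7.51 and 7.77 RPM in WT and 50.6, 25.7 and 65.7 RPM in Nedd4L-cKO MuSCs (log2 fold change 2.11, limma adjusted p = 0.0325). Its part in the values of Tnnc2 was not tested here either. Mb, Tmod1, Ckm, Tcap, Myom1, Mybph, Myl2 and Myl3 were also higher in each Nedd4L-cKO library than in any WT library, with log2 fold changes from 0.85 to 1.41 and limma adjusted p-values from 0.114 to 0.285.

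Mybpc1, the slow myosin-binding protein, had 53.6, 79.97 and 58.9 RPM in WT MuSCs and 30.01, 52.1 and 26.03 RPM in Nedd4L-cKO MuSCs (log2 fold change -0.86, limma adjusted p = 0.234), and was with Actn3 the only member lower in all Nedd4L-cKO libraries. Tnnt2 depended on WT replicate 01. It had 35.0, 1.09 and 4.33 RPM in WT MuSCs and 27.8, 22.6 and 17.6 RPM in Nedd4L-cKO MuSCs (log2 fold change 1.66, SE 0.84, limma adjusted p = 0.405), and without WT replicate 01 the limma adjusted p was 0.0195. Casq2 depended likewise on WT replicate 03, with 16.8, 16.6 and 74.95 RPM in WT MuSCs and 66.7, 128 and 88.1 RPM in Nedd4L-cKO MuSCs (limma adjusted p = 0.161, and 0.00628 without that library). Myl4, like Actc1 a developmental gene, had 8.88, 4.24 and 3.97 RPM in WT MuSCs and 3.08, 2.44 and 5.17 RPM in Nedd4L-cKO MuSCs (log2 fold change -0.52, limma adjusted p = 0.590).

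None of the 6 heavy chains passed the threshold. Their groups overlapped and the limma adjusted p-values ran from 0.2998 to 0.678. Myh3 had 1.44, 0.0451 and 0.0471 RPM in WT MuSCs and 1.08, 0.650 and 1.32 RPM in Nedd4L-cKO MuSCs, and Myh8 0.855, 0.235 and 0.201 RPM in WT MuSCs and 1.55, 0.827 and 1.04 RPM in Nedd4L-cKO MuSCs. The 6 chains summed to 11.3, 9.27 and 14.8 RPM in WT and to 32.0, 10.9 and 23.2 RPM in Nedd4L-cKO MuSCs. Developmental chains were 8.15% ± 11.04 (SD, n = 3) of the sum per kb in WT and 10.1% ± 2.61 (SD, n = 3) in Nedd4L-cKO MuSCs, and the adult fast Myh1 and Myh4 were the largest shares in every library of both genotypes, Myh1 at 29.2% to 55.6% and Myh4 at 25.4% to 55.7%.

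Of the 11 isoform ratios, 4 did not overlap between genotypes, and none could pass the threshold (exact permutation p = 0.1, adjusted 0.24). Actn2/Actn3 was -4.51, -4.89 and -4.42 in WT MuSCs and -2.52, -3.57 and -1.34 in Nedd4L-cKO MuSCs, a difference of 2.13. Actn3 was the larger of the pair in every library of both genotypes on this scale. Myl4/Myl1 (difference -2.14), Tnnt1/Tnnt3 (-1.01) and Myl3/Myl1 (-0.76) were lower in every Nedd4L-cKO library. The Myl3/Myl1 difference rests on the 1 RPM added to both genes, since Myl3 was at most 2.52 RPM in any library. Without that addition the mean of Myl3 was 3.23 times its WT mean, and that of Myl1 3.13 times.

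Of the 4 further lists of muscle and contractile genes, 1 gene passed the threshold, Hspb1, a small heat shock protein that protects myofibrils, with 55.6, 55.03 and 51.4 RPM in WT MuSCs and 169, 185 and 128 RPM in Nedd4L-cKO MuSCs (log2 fold change 1.54, SE 0.24, limma adjusted p = 0.0184). Of 33 further sarcomere and myofibril genes tested, it was the 1 called higher and 0 were called lower (median log2 fold change 0.35). By limma 0 were called of 26 genes of excitation-contraction coupling and fibre metabolism (8 higher and 2 lower by an unadjusted p under 0.05, median 0.20), 0 of 22 non-muscle and smooth muscle contractile genes (6 higher and 1 lower, median 0.28) and 0 of 14 myogenic regulators (1 higher and 1 lower, median 0.20). Myog had 551, 178 and 73.9 RPM in WT MuSCs and 374, 132 and 400 RPM in Nedd4L-cKO MuSCs (log2 fold change 0.48, SE 0.67, limma adjusted p = 0.790), Myod1 119, 61.6 and 40.5 RPM in WT MuSCs and 76.8, 86.2 and 77.2 RPM in Nedd4L-cKO MuSCs, and Pax7 183, 302 and 222 RPM in WT MuSCs and 156, 202 and 188 RPM in Nedd4L-cKO MuSCs. Mymk had 151, 73.5 and 57.9 RPM in WT MuSCs and 300, 146 and 250 RPM in Nedd4L-cKO MuSCs (log2 fold change 1.35, limma adjusted p = 0.132). WT replicate 01 was the highest WT library for Myog, Myod1 and Mymk, as it was for Actc1, Acta1 and Tnnt2.

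Markers of other cells were compared because muscle and vessel share contractile genes. Summed over 7 smooth muscle and pericyte markers (among them Acta2, Myh11, Rgs5 and the member Des, and all detected), WT MuSCs had 1340 to 2018 RPM and Nedd4L-cKO MuSCs 2256 to 3392 RPM. Of the 7, 0 were called by limma, 5 were higher and 0 lower by an unadjusted p under 0.05, and 2 did not overlap, both higher in Nedd4L-cKO MuSCs. Acta2 had 949, 513 and 700 RPM in WT MuSCs and 1661, 1066 and 993 RPM in Nedd4L-cKO MuSCs, and Myh11 1.84, 2.73 and 5.87 RPM in WT MuSCs and 6.53, 7.62 and 13.4 RPM in Nedd4L-cKO MuSCs. Of the 7, 6 had a log2 fold change above 0. Des went the other way, with 229, 193 and 117 RPM in WT and 98.8, 121 and 194 RPM in Nedd4L-cKO MuSCs (log2 fold change -0.38). Acta2 also had a mean of 1267 RPM in the fresh MuSCs of the first comparison and 1894 RPM in its myoblasts. The part of smooth muscle cells and pericytes in the values of Actc1, Myl1 and the members that did not overlap was not tested. Sums of endothelial (40.5 to 104 RPM), blood cell (2.97 to 39.9 RPM), fibro-adipogenic (1297 to 3377 RPM), Schwann cell (179 to 244 RPM) and tenocyte (152 to 1135 RPM) markers overlapped between genotypes. As single genes, 0 of these markers were called. With no overlap, 2 of 4 tested tenocyte, 1 of 6 Schwann cell and 1 of 3 endothelial markers were lower, and 1 endothelial marker was higher. Over all tested genes, 9.59% were lower and 9.75% higher with no overlap. Of the 8 MuSC markers 1 was called, Cd34, with 267, 349 and 243 RPM in WT MuSCs and 116, 102 and 62.5 RPM in Nedd4L-cKO MuSCs (log2 fold change -1.64, SE 0.29, limma adjusted p = 0.0293). In the first comparison, smooth muscle and pericyte markers summed to 1309 to 1619 RPM in fresh MuSCs and 2991 to 3292 RPM in myoblasts, Schwann cell markers to 246 to 314 and 648 to 1336 RPM, and fibro-adipogenic markers to 1624 to 1886 and 123 to 192 RPM, and the part of such cells in those results was not tested either.

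The 2 comparisons share no libraries, and their values are set side by side here without a test. In both, 15 members were higher with no overlap (2.49% of the 14343 genes tested in both), where 39 of 48 in culture and 17 of 48 between genotypes would give 13.8 if unrelated. They include the actins Actc1 and Acta1, the fast light chains Myl1 and Mylpf, the fast troponins Tnnc2, Tnni2 and Tnnt3, and Tpm2. A further 23 members were higher in myoblasts and overlapped between genotypes, including all 4 heavy chains called in culture, the slow troponins Tnnc1, Tnni1 and Tnnt1, Ttn and Neb. Sizes differed, with a log2 fold change of 9.997 in culture and 0.44 between genotypes for Tnnc1, and 3.91 and 2.39 for Actc1. Actn3 was the 1 member higher in culture and lower in Nedd4L-cKO MuSCs with no overlap in either (1.29 and -1.48).

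**Figure D5:**
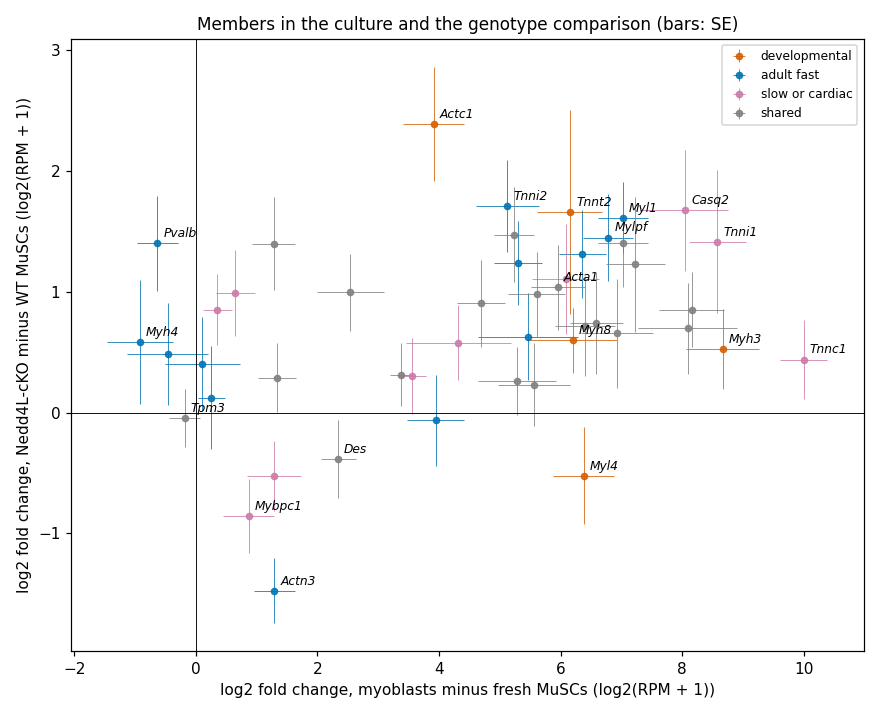
Log2 fold change of the 47 members tested in both comparisons, myoblasts minus fresh MuSCs on the x axis and Nedd4L-cKO minus WT MuSCs on the y axis, both on the log2(RPM + 1) scale, with bars for the SE and colours for the isoform class. The x axis reaches 9.997 (Tnnc1) and the y axis 2.39 (Actc1), and Actn3 lies at 1.29 and -1.48.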

How the data were processed

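RNA of 1000 cells per library was sequenced by the study with SMART-seq in 4 groups of 3. The authors estimated transcript abundance with Kallisto 0.46.1 on the GENCODE M28 basic annotation, summed it to genes with tximport and used DESeq2. The deposited signal analysed here is the authors' estimated count per gene after division by the normalization factors of DESeq2, with 1 table per comparison. Columns with the authors' fold changes and p-values were not used, nor were 18 further per-sample columns of the genotype table (the same values again, and RPM). Where a gene's transcripts share sequence with another gene, Kallisto divides the reads by estimate, so such values are less certain.

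Normalized counts were divided by the mean of the 6 library totals of their table and scaled to RPM. Genes that reached 10 normalized counts in 3 or more libraries were tested on log2(RPM + 1) with limma 3.58.1 in R 4.3.3 (trend and robust moderation, group as the only term, Benjamini-Hochberg adjustment over all tested genes). This scale understates changes of genes near 0. Calls needed an adjusted p of 0.05 or less and, between genotypes, also a log2 fold change of 1 or more in size and a mean expression of 5 RPM or more. Isoform ratios were compared with exact two-sided permutation tests in scipy 1.17.1. They were adjusted over 12 pairs, 1 of which is not reported here. The fit was tested on simulated data with known changes. Gene positions, exon lengths, promoters and shared 31-base words came from GENCODE M39 on GRCm39, a later release than the authors used. Between genotypes, a p-value here measures the spread between libraries of different mice. In culture, the libraries of both groups were fitted as if independent, although same-numbered libraries may come from the same mouse.

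Same-numbered MuSC and myoblast libraries were taken to come from the same mouse, which the labels do not state. The main fit and the permutation tests did not use this pairing, which entered only in the replicate block. The deviations of paired libraries from their group means were little correlated (-0.0315, -0.00502 and 0.0180). Same-numbered WT and Nedd4L-cKO libraries are different mice. Alternatives were trimmed mean of M values (TMM) factors without count weights, each library's own total, a pseudocount of 0.1, other filters and thresholds, plain limma, a replicate block and each library left out. Every member could be named, with full statistics for those past a threshold and their isoform partners. Of other lists, the 3 largest called changes in culture, all called genes between genotypes, and Myod1, Myog, Mymk, Pax7 and Nedd4l were named. Cd34, read-sharing genes (Ube2c, Adora1, Tstd2, Tpm3-rs7, Myh6) and the smooth muscle markers named were chosen after their values were seen. The members and lists were chosen with earlier results of these data known. Promoter windows were read from GRCm39 and are not RefSeq's.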

Additional observations from a re-analysis of the deposited data

How the results depend on the processing

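In culture, the 39 calls were 33 to 39 in every alternative, none lower. When genes needed 10 normalized counts in each library the count was 33, because fewer genes were tested, and slow or cardiac calls went from 7 to 3. The replicate block gave 38 and changed no call but that of Myl6b. Leaving out libraries moved the limma adjusted p of Myl6b from 0.00142 to 0.147. Scaling each library to its own total shifted the median of all genes to 0.14 and of the members to 5.42. Without division by length, developmental heavy chains were 67.8% of the sum in myoblasts. At a pseudocount of 0.1, the Mybpc1/Mybpc2 difference turned to -0.12 and the log2 fold change of Myh2 to -0.066. Without 1 library in turn, Myh2 ranged from -0.55 to 0.85 and Myoz1 from -1.07 to 0.38.

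Between genotypes, the 3 calls became 5 under the same filter (4 adult fast), 0 in limma without trend and robust moderation (with moderation, 22 members were higher and 2 lower by an unadjusted p under 0.05, against 7.51% and 7.13% of all genes) and 1 with the replicate block (Actc1), and 0 to 5 without 1 library. Here the numbers are shared by different mice, whose deviations correlated at 0.0192, -0.0232 and -0.181. Actc1 alone was lost with each library's own total, a pseudocount of 0.1 or no filter. The cause of these moves was not tested. Differences that turned sign when a library was left out were Tnni1/Tnni2 (-0.63 to 0.29), Tnnt2/Tnnt3 (-0.22 to 1.46) and Myoz2/Myoz1 (-0.32 to 0.36), and the log2 fold changes of Tnnt1 (-0.0077 to 0.48), Tpm3 (-0.14 to 0.10), Casq1 (-0.28 to 0.22) and Mybpc2 (-0.33 to 0.50), none of them called. Depth in reads is unknown, so the counting error of low values is too.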
